A study of Mus musculus with 2 samples.

Results

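Tetraspanins are small membrane proteins that cross the membrane several times and carry a large extracellular loop. The genes of this family were read on 2 arrays, 1 of mature hepatocytes (MHs) and 1 of Sox9+EpCAM- cells. Members were all genes that the array names Tspan followed by a number, and Cd9, Cd37, Cd53, Cd63, Cd81, Cd82 and Cd151. The rule found 27 genes with 40 probes, of 30153 genes with 39390 probes. It rests on gene names only and used no measured value. Tetraspanins under other names (Upk1a, Upk1b, Prph2 and Rom1) are not members.

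Both arrays hold total RNA of cells from Sox9-EGFP mice, in which GFP reports Sox9. MHs came from healthy livers of these mice by low-speed centrifugation and a Percoll gradient, without a sort. Sox9+EpCAM- cells were sorted as GFP+EpCAM- cells from livers of such mice fed DDC, a compound that causes chronic injury with a ductular reaction, and the study calls them biphenotypic hepatocytes. Elsewhere in the study such cells were gated among cells without CD31 (endothelial) and CD45 (leukocyte), and whether the sort for the array did the same is not stated. The labels give both samples as male, and the age of the mice, the number of mice per array and the feeding time behind the array are not given in the sources used here. The groups differ in diet, in the sort and in the cells taken, and these cannot be told apart. With 1 array per group there is no replicate, no SD and no test between groups, so 4-fold serves as a rule of size.

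Intensities are the background-subtracted spot values of the scanner software, and the ± behind an intensity is the error that this software assigns to the spot, which does not cover variation between mice. The 75th percentile of the MH array was 741, and that of the Sox9+EpCAM- array was 1110. Each log2 difference is Sox9+EpCAM- minus MH after scaling to that percentile, so a gene with 1.5 times the intensity on the Sox9+EpCAM- array has a difference of about 0. Where the scanner software did not call a spot well above background, only a bound on its level can be given. The lowest intensity that passed this call was 27.8 for MHs and 18.4 for Sox9+EpCAM- cells.

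The labels were checked against markers. All 6 hepatocyte markers were well above background on both arrays, and their summed level, relative to the 75th percentile, was 979 in MHs and 435 in Sox9+EpCAM- cells. The mean Sox9 intensity over its spots was 8.87 in MHs, not well above background, and 60.7 in Sox9+EpCAM- cells. Only the MH array had Xist above background, whereas all of 4 Y-linked genes were above background for Sox9+EpCAM- cells and none for MHs. The male label thus goes against the MH array, and the sex of the mice and the group cannot be told apart. Markers of other cells were present on both arrays and moved between them. The summed level of 9 leukocyte markers was 16.5 in MHs and 2.53 in Sox9+EpCAM- cells, that of 6 sinusoidal endothelial markers was 7.97 and 2.44, and that of 9 fibroblast and stellate cell markers was 12.2 and 54.0. That of 7 cholangiocyte markers was 2.27 and 48.9, most of it Spp1 (47000 in Sox9+EpCAM- cells), and Epcam was 13.3-fold higher in the library labelled EpCAM-. The part of ductal cells in the tetraspanin values was not tested. In such bulk samples, fewer cells of a type and less RNA per cell cannot be told apart.

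Tetraspanins hold other proteins, such as integrins, proteases and growth factor precursors, in patches of the membrane, and they steer the traffic of these partners. Cd9, Cd81, Cd82 and Cd151 are mainly found at the cell surface, Cd63 in late endosomes, lysosomes and exosomes. The TspanC8 members (Tspan5, Tspan10, Tspan14, Tspan15, Tspan17 and Tspan33), named after the cysteines of their large loop, bind Adam10, a membrane protease that cuts Notch receptors and cadherins. Cd37, Cd53 and Tspan32 are known from leukocytes. In the liver, CD81 is best known as an entry receptor of hepatitis C virus.

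The probes of the members beyond 4-fold and of Cd9, and pairs of probes of one gene that gave like values (Cd37 and Cd151) or unlike values (Tspan17, Tspan5 and Tspan18), are shown as stretches of 30 bases of the 60-base probe, 5′ to 3′ as the array design gives them. Capitals mark AATAAA or ATTAAA, the hexamers that commonly signal cleavage and polyadenylation near the 3′ end of a transcript. Each stretch shows the first 30 bases of its probe, except that of Cd63 (bases 23 to 52), the downstream probe of Tspan17 (bases 31 to 60) and the downstream probe of Cd37 (bases 19 to 48).
Cd63: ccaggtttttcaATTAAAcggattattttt
Tspan3: gttagagataatgtacccatggagactagc
Tspan17 upstream: tatttggcctctgcttggcccagaacctcg
Tspan17 downstream: gctacaaacgactcAATAAAcaacactttg
Tspan15 upstream: ggggtgccctacacctgctgcatcaggaac
Tspan15 downstream: ctaaaaacccaacagaatgaccctcaaaat
Tspan5 upstream: ttggagctgatgattggaacctaaatattt
Tspan5 downstream: cactccttgggtttacgtggctctgcatgt
Tspan18 upstream: ttttgggaggatcaagtgagcttacaggca
Tspan18 downstream: ttgttagtctctctaggctcagattaccca
Cd151 upstream: acctgctgcttgtaccgaagcctcaagctg
Cd151 downstream: atgttcctgacactgtctccttttggagca
Cd37 upstream: tggctgcacaacaatatcatctccatagtg
Cd37 downstream: catgacacctcaAATAAAtcccctttgggt
Cd9: cctgcaatgaaaggtactatatttgccaga
On the strand of the probe, 1 of these hexamers was found in 9 of the 40 tetraspanin probes (22.5%) and in 16.7% of all 39390 probes. On the other strand it was found in 0 tetraspanin probes and in 6.55% of all probes. No tetraspanin probe had 20 consecutive bases in common with another gene's probe, whereas 7.16% of all probes did. Probe positions are those of the design on mm9. Whether a probe lies in coding sequence or in a UTR was not annotated here.

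Both arrays had signal well above background for 21 of the 27 tetraspanins. Cd63, Tspan1, Tspan7 and Tspan11 had it in Sox9+EpCAM- cells only, which is 14.8% of the members, and 12.0% of all genes fell in that class. No member had it in MHs only, a class that held 1.90% of all genes. Tspan8 and Tspan13 were not well above background on either array. Of 25 members with a difference or a bound, 3 exceeded 4-fold towards Sox9+EpCAM- cells (Cd63, Tspan3 and Tspan17), which is 12%, and 5.59% of all 23417 such genes did. Tspan15 alone was at least 4-fold lower, which is 4% of the 25, and 5.57% of all such genes were. With the 21 members measured on both arrays, these counts were 2 higher (3.94% of all genes so measured) and 1 lower (4.75%). At 10-fold Cd63 alone was higher (1.55% of all genes) and 0 members were lower (1.47%). A single gene is 4% of this list. At least 2-fold higher were 5 members (20%, against 14.2% of all genes), Cd9 and Tspan33 being added, and at least 2-fold lower were 4 members (16%, against 16.7%), with Cd53, Cd37 and Tspan18 added. The median log2 difference was -0.40 over the 25 members and -0.17 over all genes. Among the 21 members measured on both arrays, 9 were higher and 12 lower in Sox9+EpCAM- cells, and among all 19232 such genes 7714 were higher and 11518 lower.

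**Figure D1:**
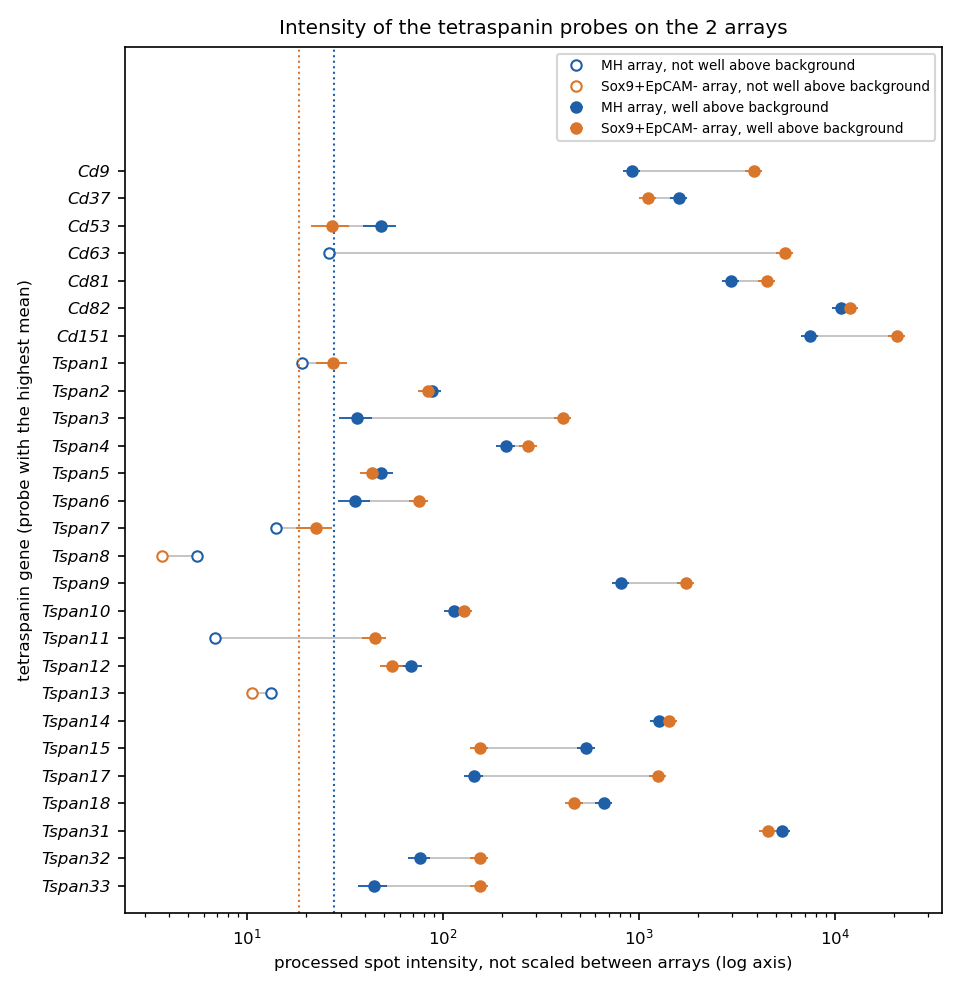
Processed spot intensity (log axis, not scaled between arrays) of the probe with the highest mean of each of the 27 tetraspanins on the MH array (blue) and the Sox9+EpCAM- array (orange), with bars for the scanner software's error, open circles for spots not well above background and dotted lines at the lowest intensity well above background of each array (27.8 and 18.4). Cd63 has the widest gap, from 26.1 in MHs to 5560 in Sox9+EpCAM- cells, and Tspan8 and Tspan13 have open circles on both arrays.

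Among the surface and endosomal members of the CD series, Cd63 and Cd9 were more than 2-fold higher in Sox9+EpCAM- cells, and Cd151, Cd81 and Cd82 lay below 2-fold by the probe with the highest mean. The median log2 difference of these 5 genes was 0.89, and their summed level relative to the 75th percentile was 29.9 in MHs and 41.9 in Sox9+EpCAM- cells. The probe of Cd63, at chr10:128349813-128349872 on the plus strand, had an intensity of 26.1 ± 6.15 in MHs, which is not well above background, and 5560 ± 556 in Sox9+EpCAM- cells. Sox9+EpCAM- cells thus had at least 134-fold more Cd63 signal, and the bound is 7.06 on the log2 scale. The bound depends on how low signals are treated, and with normexp background correction, which raises low signals, the log2 difference was 5.34. The study picked Cd63 from these same arrays, so its size here is not independent evidence of its direction.

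Partners of Cd63 and other genes of its compartment were read beside it. Timp1, a protease inhibitor that binds CD63 at the surface, had an intensity of 6.02 in MHs, not well above background, and 158 in Sox9+EpCAM- cells, at least 3.79-fold higher. Lamp1 and Lamp2, the main membrane glycoproteins of lysosomes, had log2 differences of -0.67 and -0.75, although another probe of Lamp2 gave 0.00. Ap3m1, a subunit of the AP-3 adaptor that sorts CD63 to lysosomes, was 3.14-fold lower in Sox9+EpCAM- cells, with 3210 in MHs and 1530 in Sox9+EpCAM- cells. Tsg101, Pdcd6ip and Sdcbp, which act in the budding of exosomes, had log2 differences of -0.65, -0.07 and 0.17. Another probe of Sdcbp was well above background in MHs only, with 39.8 in MHs and 19.6 in Sox9+EpCAM- cells, lower by at least 3.04-fold. CD63 is also abundant in platelets, macrophages and fibroblasts. Of 3 platelet markers, Pf4 had 5.67 in MHs, not well above background, and 101 in Sox9+EpCAM- cells (at least 2.43-fold), Itga2b had a log2 difference of 0.06 and Ppbp was not well above background on either array. The macrophage markers summed to 26.6 in MHs and 13.5 in Sox9+EpCAM- cells. Clec4f was 86.1-fold and Emr1 20.2-fold lower in Sox9+EpCAM- cells, and Cd68 was 14.4-fold higher. Csf1r, the brightest of these markers on both arrays, had a log2 difference of -0.42. Of 8 fibroblast and stellate cell markers with a difference or bound, 5 exceeded 4-fold towards Sox9+EpCAM- cells. Lrat, a stellate cell marker, went the other way, with 94.6 in MHs and 3.74, not well above background, in Sox9+EpCAM- cells, at least 7.70-fold lower. The part of these cells in the Cd63 signal was not tested.

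Cd9, which acts in cell motility and membrane fusion, was read by a probe at chr6:125410387-125410446 on the minus strand. Its intensity was 920 ± 92.2 in MHs and 3870 ± 387 in Sox9+EpCAM- cells, and it was 2.81-fold higher in the latter (log2 difference 1.49 ± 0.20, software error). CD9 binds the immunoglobulin protein Ptgfrn and the membrane-bound precursor of the growth factor HB-EGF, and both genes were higher as well. Ptgfrn had intensities of 102 in MHs and 1610 in Sox9+EpCAM- cells, a 10.5-fold difference. Hbegf had 151 in MHs and 5590 in Sox9+EpCAM- cells, a 24.7-fold difference. Igsf8, a further immunoglobulin partner of CD9 and CD81, was not well above background on either array. Epcam, which associates with tetraspanins, had 139 in MHs and 2770 in Sox9+EpCAM- cells, 13.3-fold higher in cells that were sorted as EpCAM-.

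Cd151, which binds laminin-binding integrins, was higher in Sox9+EpCAM- cells by both of its probes. The upstream probe, at chr7:148656555-148656614, had 7440 in MHs and 20700 in Sox9+EpCAM- cells (log2 difference 0.89 ± 0.20). The downstream probe, at chr7:148657237-148657297, had 250 and 894, a log2 difference of 1.26 ± 0.21. By the probe with the highest mean Cd151 lay below 2-fold, but it passed 2-fold with Gapdh scaling (1.16), quantile normalization (1.28) and the median over the probes (1.07). The genes of these integrins lay below 2-fold in either direction by the probe with the highest mean. Itga3 and Itga6 had log2 differences of 0.20 and -0.68, Itgb1 and Itgb4 of -0.43 and 0.47. Another probe of Itga6 was not well above background in MHs, at 8.18, and had 176 in Sox9+EpCAM- cells, at least 4.23-fold higher, so the 2 probes of Itga6 point in opposite directions.

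Cd81 and Cd82 differed less than Cd9 and Cd151. Cd81 had 2940 ± 294 in MHs and 4510 ± 451 in Sox9+EpCAM- cells, which after scaling is a log2 difference of 0.03 ± 0.20. Its sign turned with the scaling, over a range from -0.14 to 0.30. Cd82, known as a suppressor of metastasis, has 3 probes, with log2 differences of -0.47, -0.44 and -0.04 from the 5′ to the 3′ end. The largest spread between them was 0.43, and each lay below 2-fold.

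**Figure D2:**
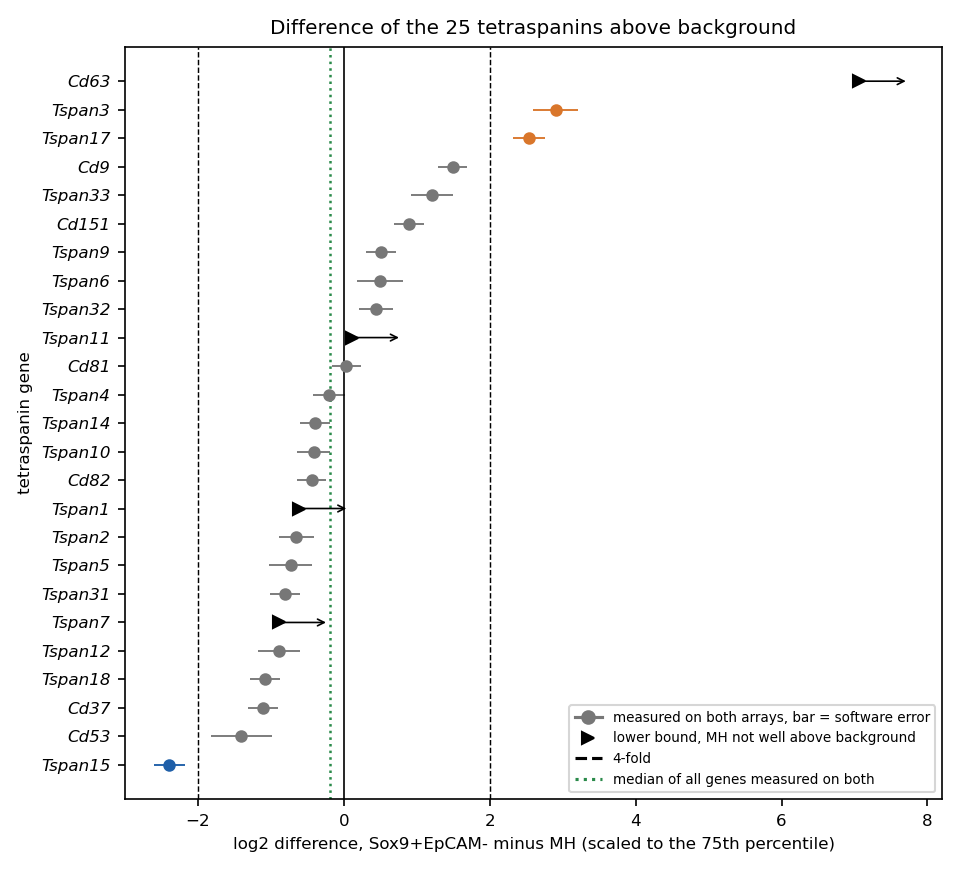
Log2 difference (Sox9+EpCAM- minus MH, scaled to the 75th percentile) of the 25 tetraspanins well above background on at least 1 array, with circles and software error bars for genes measured on both arrays, triangles with arrows for lower bounds, dashed lines at 4-fold and a dotted line at the median of all genes measured on both arrays (-0.19). Cd63, Tspan3 and Tspan17 lie beyond 4-fold on the right and Tspan15 on the left, and the bounds of Tspan1 and Tspan7 lie below 0 and give no fold.

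Of the 6 TspanC8 members, Tspan17 passed 4-fold upwards in Sox9+EpCAM- cells and Tspan15 downwards, each 16.7% of the group against 5.59% and 5.57% of all genes. The median log2 difference of the group was -0.41. Their summed level was about the same on both arrays, 2.90 in MHs and 2.85 in Sox9+EpCAM- cells. Adam10 itself, the protease they bind, had 1030 in MHs and 1080 in Sox9+EpCAM- cells (log2 difference -0.51). Adam17, a related protease that does not depend on TspanC8 proteins, had a log2 difference of -0.21, and Notch1, a substrate of Adam10, of 0.03 and -0.73 by its 2 probes.

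Tspan15, which directs Adam10 to N-cadherin, was read above background by its upstream probe, whose interval on mm9 is chr10:61652579-61654248 on the minus strand. That interval spans 1670 bases for a 60-base probe, so the probe sequence is not contiguous in the genome. The intensity was 540 ± 54.3 in MHs and 154 ± 15.9 in Sox9+EpCAM- cells. Tspan15 was thus 5.25-fold lower in Sox9+EpCAM- cells (log2 difference -2.39 ± 0.21), and 3.05% of the genes measured on both arrays had a lower value. Under the other scalings and background correction its difference ran from -2.57 to -2.01, beyond 4-fold throughout. The downstream probe, at chr10:61648563-61648622, was not well above background on either array, with 18.5 in MHs and 9.24 in Sox9+EpCAM- cells, and gives no second reading.

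Tspan17 has 2 probes 551 bases apart. The upstream probe, at chr13:54897519-54897578 on the plus strand, had 144 ± 16.1 in MHs and 1250 ± 125 in Sox9+EpCAM- cells, 5.79-fold higher (log2 difference 2.53 ± 0.22). The downstream probe, at chr13:54898070-54898129, which carries the AATAAA hexamer, had 139 ± 15.8 and 302 ± 30.6, 1.45-fold higher (log2 difference 0.54 ± 0.22). Both were higher in Sox9+EpCAM- cells, but their differences lay 2.0 apart on the log2 scale, more than in 85.8% of the 4000 genes with several probes measured on both arrays. With the median over the probes, Tspan17 had a log2 difference of 1.54 and did not reach 4-fold.

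Tspan33 had 44.4 ± 7.47 in MHs and 154 ± 15.9 in Sox9+EpCAM- cells, 2.32-fold higher. This gene lies near background in MHs, and with normexp background correction its log2 difference was 0.36 in place of 1.21. Tspan14 had 1260 and 1430 (log2 difference -0.40), and Tspan10 had 114 and 128 (-0.42), both below 2-fold. For Tspan5 the 2 probes disagreed in direction. The downstream probe, at chr3:138567019-138567078, had 48.0 in MHs and 43.3 in Sox9+EpCAM- cells (log2 difference -0.73), whereas the upstream probe, at chr3:138559772-138559831, had 6.43, not well above background, and 88.4, at least 2.12-fold higher. The median over both gave 0.18, so no direction can be given for Tspan5.

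**Figure D3:**
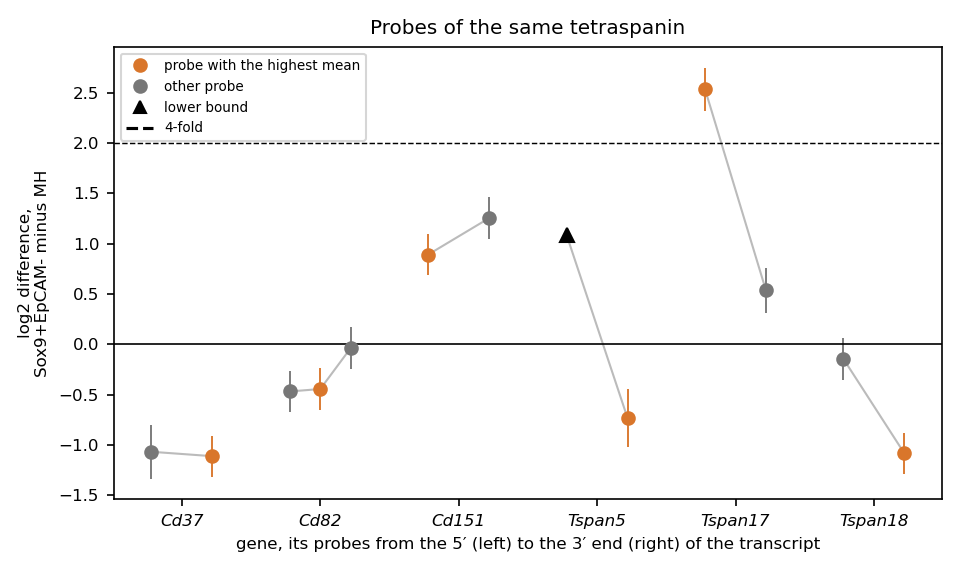
Log2 difference (Sox9+EpCAM- minus MH) of each probe of the 6 tetraspanins with several probes well above background on at least 1 array, ordered from the 5′ (left) to the 3′ end (right), with orange circles for the probe with the highest mean, grey circles for other probes, bars for the software error, a triangle for a lower bound and a dashed line at 4-fold. The probes of Cd37 and Cd151 lie close together, those of Tspan17 lie 2.0 apart, and those of Tspan5 lie on opposite sides of 0.

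The leukocyte members Cd37 and Cd53 were lower in Sox9+EpCAM- cells, while Tspan32 was not. Cd37, which acts in B cells and other leukocytes, was lower by both probes. When scaled to Gapdh, its probe with the highest mean fell short of 2-fold (-0.84). The downstream probe, at chr7:52489002-52489061, had 1600 ± 160 in MHs and 1110 ± 112 in Sox9+EpCAM- cells (log2 difference -1.11 ± 0.20), and the upstream probe, at chr7:52490054-52490113, had 68.8 and 49.2 (-1.07 ± 0.27). The differences of the 2 probes lay 0.04 apart, less than in all but 3.88% of the genes with several probes. Cd53, a tetraspanin of most leukocytes, had 48.2 ± 9.30 in MHs and 27.2 ± 5.92 in Sox9+EpCAM- cells, 2.65-fold lower (-1.41 ± 0.42), and with normexp background correction the value was -0.82. Tspan32 had 76.0 and 154 by its only probe above background (0.44 ± 0.23). Most leukocyte markers were lower as well. All 7 that were measured on both arrays were lower in Sox9+EpCAM- cells, of them Cd74 8.38-fold and Lyz2 6.23-fold, and C1qc was well above background in MHs only. Cd79a, a B cell marker, was well above background in Sox9+EpCAM- cells only, with 24.2 in MHs and 31.2 in Sox9+EpCAM- cells. The bound of Cd79a lies below 0 and gives no fold. Ptprc and Cd3e, general and T cell markers of leukocytes, had smaller log2 differences of -0.24 and -0.22. The part of leukocytes in the difference of Cd37 and Cd53 was not tested.

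Tspan12 and Tspan18, both known from endothelial cells, are a pair put together with the values known. By the probe with the highest mean both were lower in Sox9+EpCAM- cells, Tspan12 by less than 2-fold. Tspan12, which helps Norrin to signal through Fzd4 and Lrp5, had 68.4 in MHs and 55.2 in Sox9+EpCAM- cells (log2 difference -0.89 ± 0.28). It passed 2-fold with quantile normalization (-1.10) and the deposited table (-1.07). Fzd4 had 1860 and 545, 5.11-fold lower, and Lrp5 had 721 and 1350, a log2 difference of 0.32. Tspan18, which regulates the calcium channel Orai1, had 4 probes. The probe with the highest mean had 663 ± 66.7 in MHs and 469 ± 47.1 in Sox9+EpCAM- cells, 2.12-fold lower (-1.08 ± 0.21), but with the median over the probes the difference was -0.61, below 2-fold. Another probe, upstream of it, had 211 and 286 (-0.14 ± 0.21), and the remaining probes were not well above background on either array. All 5 sinusoidal endothelial markers above background were lower in Sox9+EpCAM- cells, 4 of them at least 2-fold. The part of endothelial cells in these differences was not tested.

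Of the remaining members, Tspan3 differed by at least 4-fold. Tspan3, which binds claudin-11 in oligodendrocytes, was read by 1 probe at chr9:55983732-55983791 on the minus strand. Its intensity was 36.4 ± 6.93 in MHs and 408 ± 41.0 in Sox9+EpCAM- cells, 7.48-fold higher (log2 difference 2.90 ± 0.31), and 1.44% of the genes measured on both arrays had a higher value. The MH value lies just above the lowest intensity well above background there, 27.8. With normexp background correction the difference was 1.79, below 4-fold. Tspan9, known from platelets, had 813 and 1730 (0.51 ± 0.20). Tspan31, which is amplified in sarcomas, had 5370 and 4580 (-0.81 ± 0.20). Tspan4, a component of migrasomes, had 210 and 273 (-0.20 ± 0.21), and Tspan2 had 87.6 and 83.6 (-0.65 ± 0.23) by the probe above background. With an unchanged sign under other scalings, Tspan9 ran from 0.33 to 0.77 and Tspan31 from -0.99 to -0.52, whereas the sign of Tspan4 turned.

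The X-linked members were low on both arrays. Tspan6 had 35.6 ± 6.62 in MHs and 75.3 ± 8.39 in Sox9+EpCAM- cells (log2 difference 0.50 ± 0.31), and the sign turned with normexp background correction (-0.16). Tspan7, known from neurons, had 14.0, not well above background, and 22.5, which gives no fold. The part of the sex of the mice in these values was not tested.

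The members known from epithelia were at or near background. Tspan1 had 19.1 in MHs, not well above background, and 27.3 in Sox9+EpCAM- cells, and its bound gives no fold. Tspan8, which marks epithelia and carcinomas of the digestive tract, had 5.58 and 3.69, and Tspan13 had 13.2 and 10.6, all not well above background. Among the cholangiocyte markers, Spp1 was 122-fold higher in Sox9+EpCAM- cells, while Krt7 and Krt19 had log2 differences of -0.23 and 0.42. Tspan11 had 6.87 in MHs, not well above background, and 45.0 in Sox9+EpCAM- cells. Its bound of 0.11 on the log2 scale turned sign with normexp (-0.45), quantile normalization (-0.12) and the deposited table (-0.07), so no direction is given.

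Some members neighbour each other in the genome. Cd151 and Tspan4 have probes 22.6 kb apart on chromosome 7 and log2 differences of 0.89 and -0.20. Tspan32 and Cd81, with probes 49.1 kb apart on the same chromosome, had 0.44 and 0.03. Tspan18 and Cd82, 216.5 kb apart on chromosome 2, had -1.08 and -0.44. Tspan11 and Tspan9 lie on opposite strands of chromosome 6 with probes 10.1 kb apart, and Tspan9 had 0.51, while Tspan11 has no settled direction.

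Partners of tetraspanins were read as a list of 34 genes. The list was chosen with earlier results of these data known, so its shares are not independent of the values. Of 32 with a difference or a bound, 3 (Hbegf, Epcam and Ptgfrn) exceeded 4-fold towards Sox9+EpCAM- cells, which is 9.38% against 5.59% of all genes. At least 4-fold lower were Itga5 and Fzd4 (6.25%, against 5.57%). Itga5, which pairs with Itgb1 as the fibronectin receptor, had 2280 in MHs and 454 in Sox9+EpCAM- cells, 7.52-fold lower. The median log2 difference of the list was -0.20, close to the -0.17 of all genes. Itga2, the collagen-binding integrin chain, was not well above background in MHs, at 7.04, and had 157 in Sox9+EpCAM- cells, at least 3.77-fold higher. Zdhhc4, a palmitoyltransferase, had 194 and 1110, 3.82-fold higher, and Zdhhc2, which attaches palmitate to CD9 and CD151, had a log2 difference of 0.30. Mmp14, a membrane protease that tetraspanins bind, had 5820 and 17600, 2.02-fold higher. The 4 probes of Cd44, an adhesion receptor, spread from a log2 difference of -0.33 to at least 4.28, so its value depends on the probe.

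**Figure D4:**
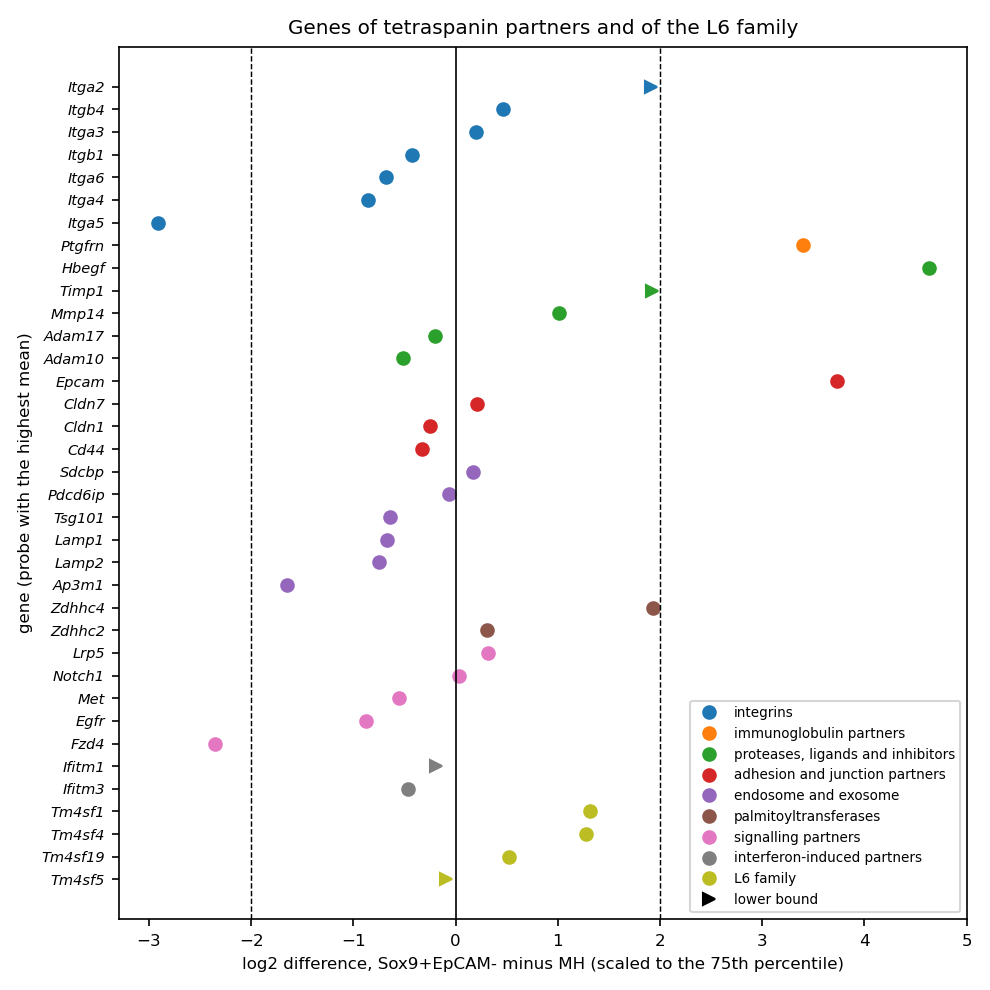
Log2 difference (Sox9+EpCAM- minus MH, scaled to the 75th percentile) of the partner genes and of the L6 family by the probe with the highest mean, coloured by role, with triangles for lower bounds and dashed lines at 4-fold. Hbegf, Epcam and Ptgfrn lie beyond 4-fold on the right and Itga5 and Fzd4 on the left.

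The L6 family resembles tetraspanins in how it crosses the membrane but is not related to them in sequence. Tm4sf1 had 488 in MHs and 1820 in Sox9+EpCAM- cells, 2.49-fold higher, and Tm4sf4 had 14700 and 53400, 2.43-fold higher. Tm4sf19 had a log2 difference of 0.52, Tm4sf5 was well above background in Sox9+EpCAM- cells only, and Tm4sf20 on neither array. Of the tetraspanins under other names, Upk1a had a log2 difference of -0.72. The probes of Prph2 differed in the background call. One was well above background in Sox9+EpCAM- cells only (28.7, with 23.7 in MHs). Its bound of -0.54 on the log2 scale lies below 0 and gives no fold. The other was well above background in MHs only (52.3, with 5.73 in Sox9+EpCAM- cells), with a log2 difference of at most -2.09. Only the latter probe gives a direction. Upk1b and Rom1 were not well above background on either array.

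The error that the software assigns to a difference ran from 0.20 to 0.42 among the 21 members measured on both arrays. Of these, Cd81 and Tspan4 lay within 1 such error of 0, and 6 lay within 2. Between spots of one probe, for probes printed at least 8 times, the median SD at intensities under 100 was 0.16 for MHs and 0.15 for Sox9+EpCAM- cells, and 0.06 on both arrays above 1000. Each tetraspanin probe was printed once on an array, so no member has such a spread of its own.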

How the data were processed

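Expression was measured in 1 sample of MHs and 1 of Sox9+EpCAM- cells on one-colour Agilent arrays, labelled with Cy3, on 1 slide and in 1 scan. The authors deposited processed spot intensity values from Feature Extraction 10.7.3.1, with background subtracted and no normalization between arrays. They also deposited a table of ratio values, which set every processed intensity over its array's median (SD of the log2 factor 0.0018).

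Control spots were dropped, as were 276 outlier spots (0 of the tetraspanins), and log2 intensities were set against the array's 75th percentile. The probe with the highest mean over both arrays stands for a gene. A dim level was replaced by the lowest signal that passed the background call on that array, or by the probe's own signal if larger, which gives a bound, and a probe dim on both has no difference. Gene names and mm9 positions are those of the array design.

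Members and lists were chosen with earlier results of these data known. Every tetraspanin above background is named with its probes, and of the partners those at least 4-fold different; Timp1, Itga2, Zdhhc4, Mmp14, Cd44 and other partners below 4-fold were added with their values known. The depth of an array is its signal over background, with 27523 (MH) and 32158 (Sox9+EpCAM-) of 43020 spots well above it.

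The alternatives were normexp (limma 3.58.1, R 4.3.3, offset 50), scaling by Gapdh or by the median of probes measured on both arrays, quantile normalization, the deposited table, a median over a gene's probes, retained outlier spots, no bound, only genes measured on both arrays, and rules of 2-fold and 10-fold. A value was called moved beyond 1.5-fold. Python 3.11.15, pandas 2.3.3 and numpy 2.4.6 were used. The procedure was tested on simulated data with known differences.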

Additional observations from a re-analysis of the deposited data

How the results depend on the processing

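Of 221 values of single tetraspanins under the alternatives, 212 moved by less than 1.5-fold, 9 moved more and 0 called values changed sign. Many of these values could not move, so the count does not measure robustness. Retained outlier spots change no member, the bound changes none measured on both arrays, and the choice of probe none with a single probe. Scaling by Gapdh, by the median or with the deposited table shifts all members by nearly the same amount. With normexp, Cd63 was 5.34, Tspan3 1.79, Tspan33 0.36, Cd53 -0.82 and Tspan6 -0.16 on the log2 scale. With the median of all probes, Tspan17 was 1.54 and Tspan5 0.18. Without the bound, Tspan11 was 2.13 and Tspan7 0.10. Under each scaling, background correction or choice of probes and spots, 2 or 3 tetraspanins were at least 4-fold higher and 1 was lower. Without the bound 4 were higher, Tspan11 being added from an MH spot not well above background, and 1 was lower. At a 2-fold rule 5 were higher and 4 lower, and at 10-fold 1 was higher and 0 lower. Cd81, Tspan4 and Tspan6 changed sign with the scaling or background correction, and the median over tetraspanins ran from -0.57 to -0.13. When scaled to Gapdh, Cd37 (-0.84) and Tspan18 (-0.82) fell short of 2-fold, as did Tspan18 with the median of all probes (-0.61). Cd151 passed 2-fold with Gapdh (1.16), quantile normalization (1.28) and the median of all probes (1.07). Tspan12 passed 2-fold downwards with quantile normalization (-1.10) and the deposited table (-1.07). The bound of Tspan11 turned sign with normexp (-0.45), quantile normalization (-0.12) and the deposited table (-0.07).

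Among partners, 7 were at least 2-fold higher (21.9%, against 14.2% of all genes) and 0 at least 10-fold lower (1.47% of all genes). When scaled to Gapdh, 6 partners were at least 4-fold higher, while the count over all genes rose from 1309 to 1650. Without the bound, 5 partners were, and the count over all genes was 1949. Over all genes, normexp gave 612 higher and 660 lower, genes measured on both arrays gave 758 higher, the 2-fold rule 3319 and 3918, and the 10-fold rule 363 and 344. The Gapdh scaling shifted the median of all genes measured on both arrays from -0.19 to 0.07 and the split to 1650 higher and 1006 lower, and the partner median became 0.07. The deposited table gave 1130 higher and 1563 lower. The cause of these shifts was not tested.

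No paired analysis was possible because the MH and Sox9+EpCAM- groups hold 1 array each, so leaving out an array or fitting the slide was not possible either. Members near the lowest signal above background (27.8 on the MH array, 18.4 on the Sox9+EpCAM- array) have the least certain sizes.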
